A study of Mus musculus with 4 samples.

Results

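Drop-seq of dissociated mouse renal cortex gave 5034 barcodes dominated by mitochondrial transcripts, of 7982 valid barcodes in 4 libraries. Drop-seq captures polyadenylated RNA on beads in droplets, and each bead carries a 12-base cell barcode and an 8-base molecular identifier (UMI) per captured molecule. A barcode was taken as mitochondria-dominated when it had at least 100 UMIs and more than 50% of them came from genes whose symbol starts with mt-. Barcodes with an undetermined base or with any base 11 times or more were left out. The reference was the 1916 barcodes of the same files with at least 200 detected genes and at most 50% mt- UMIs. The other 1032 barcodes met neither rule. A barcode is not shown to be a cell in either class.

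The libraries came from 2 mice carrying the Ins2 Akita mutation on a C57BL/6 background and from 2 wild-type counterparts, 1 library for each mouse. The Akita mice, which become diabetic because a misfolded insulin damages the pancreatic beta cells, were labelled 116 and 119 days old. The wild-type mice were labelled 45 and 51 days old, so age and genotype cannot be told apart. The labels' protocol states a housing time of 24 weeks, which exceeds every labelled age, and groups of 8 mice, from which 2 libraries each are analysed here. All animals shared the same tissue, sieving and collagenase digestion. The mitochondria-dominated barcodes numbered 1449 and 1117 in Akita replicates 1 and 2, and 1210 and 1258 in wild-type replicates 1 and 2. The reference barcodes numbered 311 and 600 in Akita, and 564 and 441 in wild type.

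Mitochondrial DNA is a small circle copied onto both strands as long precursors, which are cut at the tRNAs into ribosomal RNAs, tRNAs and messengers. The messengers encode subunits of the respiratory chain complexes and of ATP synthase, while most other mitochondrial proteins come from nuclear genes, are made in the cytosol and are imported. Renal cortex is rich in proximal tubule, a segment packed with mitochondria that reabsorbs filtered solutes. In droplet methods, a high mitochondrial share is widely used as a filter for damaged cells, and the barcodes described here are the ones such a filter removes.

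Mitochondrial ribosomal RNA made up much of what these barcodes held, so stretches of the RNAs concerned are shown first, 5′ to 3′, from the GRCm38 mitochondrial genome. Capitals mark the most A-rich window of 20 bases in each transcript, shown because Drop-seq beads capture RNA through runs of A. The large ribosomal RNA mt-Rnr2 has 16 A in that window, the small ribosomal RNA mt-Rnr1 has 15, and the cytochrome b messenger mt-Cytb has 13.
mt-Rnr2, chrM:1483-1512, plus strand: ttgctAAAAAAACAACAAAATCAAAaagta
mt-Rnr1, chrM:720-749, plus strand: taagcAAAAGAATCAAACATAAAAAcgtta
mt-Cytb, chrM:14145-14174, plus strand: atgACAAACATACGAAAAACACAcccatta
Windows with at least 12 A numbered 86 in mt-Rnr2, 49 in mt-Rnr1 and 14 in mt-Cytb. Among other messengers, mt-Nd2 had 63 and mt-Nd6 had 0, with 60043 and 58794 UMIs in dominated barcodes. The window counts describe the letters only, and no priming site was measured.

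A second set of sequences bears on which mitochondrial messengers could be counted at all. The messenger of cytochrome c oxidase subunit 2, mt-Co2, has near-identical copies in the nuclear genome. The 30 bases from position 226 to 255 of each transcript are shown, with capitals at the positions where the copies differ.
mt-Co2, chrM:7238-7267, plus strand: attgcTctcccctctctacgcattctataT
Gm28661, chr1:24615311-24615340, minus strand: attgcTctcccctctctacgcattctataT
Gm13341, chr2:22587708-22587737, minus strand: attgcCctcccctctctacgcattctataC
Over the whole match, Gm28661 was 100% identical to mt-Co2 across 681 bases, and Gm13341 was 95.9% identical across 684 aligned positions. A read from such a stretch of Gm28661 cannot be told from one of mt-Co2.

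Several features of the libraries touch every result below. Of the barcode sequences, 884 occurred both in Akita replicate 2 and in wild-type replicate 1, whereas the other pairs of libraries had 3 or 4 in common. Of the 884, 394 were mitochondria-dominated in both libraries and 424 were reference barcodes in both. Their mitochondrial share differed between the 2 files by a median of 6.01 percentage points. Shared barcodes contributed 403 to the 1117 dominated barcodes of Akita replicate 2 and 399 to the 1210 in wild-type replicate 1, and which mouse their UMIs came from cannot be told apart. Each file listed close to 2000 barcodes, so the share of dominated barcodes refers to a list of nearly fixed length. The libraries held 1016719 and 1200209 UMIs in Akita, and 1303453 and 1115055 in wild type.

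Dominated barcodes were shallow. Their median UMI count was 207 and 255 in Akita and 233.5 and 218 in wild type, against reference medians of 835 and 746.5 in Akita and 819 and 782 in wild type. Because most of these UMIs were mitochondrial, the median dominated barcode held 47 and 56 nuclear UMIs in Akita and 60 in each wild-type library. The median number of genes detected was 51 and 61 in Akita and 67 and 64 in wild type. They nevertheless took 39.9% and 30.3% of the UMIs in Akita, and 33.6% and 30.5% in wild type. Of the nuclear UMIs they held between 12.6% and 17.6% across the 4 libraries, and of the mitochondrial UMIs between 61.5% and 70.6%.

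Few of the dominated barcodes had a close relative in sequence. Those that differed by 1 base from another barcode of the file made up 4.62% and 2.24% in Akita and 7.19% and 3.26% in wild type, against 41.2% and 18.8% of reference barcodes in Akita and 22.0% and 29.0% in wild type. The edges of the rule were thinly populated compared with the number of members. Barcodes with over 50% to 55% mitochondrial UMIs numbered between 23 and 83 per library, and those just outside, from 45% to 50%, between 34 and 68. Their median UMI counts ranged from 256 to 306 inside and from 204 to 353 outside. Between 8 and 45 further barcodes per library were over 50% mitochondrial but under 100 UMIs.

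**Figure D1:**
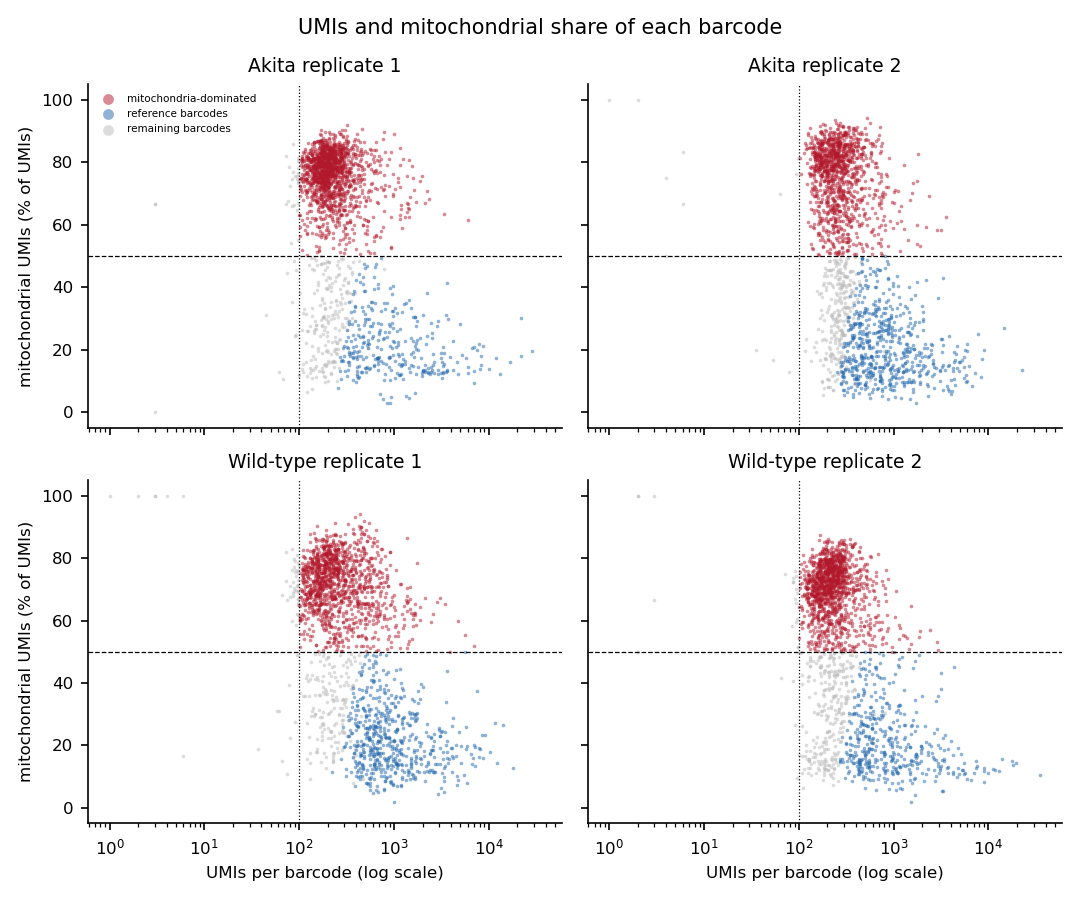
UMIs per barcode (log scale) against the percent of UMIs from mt- genes, 1 panel for each library and 1 point for each valid barcode. Dashed and dotted lines mark the 50% and 100-UMI limits of the rule, and the dominated barcodes form a dense group near 200 UMIs and 70% to 80% mitochondrial UMIs, apart from the reference barcodes that extend to the right.

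Among dominated barcodes, the large ribosomal RNA mt-Rnr2 was the most counted mitochondrial transcript in all 4 libraries, and its weight differed widely between libraries. It made up 67.3% and 49.6% of their mitochondrial UMIs in Akita and 41.9% and 67.3% in wild type, against 50.2% and 45.8% in Akita and 43.8% and 51.2% in wild type in reference barcodes. The small ribosomal RNA mt-Rnr1 took 2.62% and 2.57% in Akita and 2.43% and 2.07% in wild type, against reference values of 2.43% and 2.18% in Akita and 2.10% and 1.74% in wild type. It was higher in dominated barcodes in all 4 libraries, by less than 1 percentage point. Since mitochondrial UMIs chose the members, these shares are given as a description with no test.

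Both ribosomal RNAs together took 69.9% and 52.1% in Akita and 44.3% and 69.4% in wild type in dominated barcodes, against 52.7% and 48.0% in Akita and 45.9% and 52.9% in wild type in reference barcodes. The difference between the classes was 17.2 and 4.11 percentage points in Akita and −1.62 and 16.5 in wild type, a mean of 9.05 ± 9.32 (SD, n = 4 libraries). The SD exceeded the mean, and the libraries with the large differences were Akita replicate 1 and wild-type replicate 2, 1 of each genotype. Those are the libraries without shared barcodes. With the shared barcodes left out of the other pair, the mean difference was 9.82 percentage points.

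Per length, and among mitochondrial UMIs, mt-Rnr2 stood at 357 ± 81.3 UMIs per kb and 1000 mitochondrial UMIs in dominated barcodes and 302 ± 22.2 in reference barcodes (SD, n = 4). The glutamine tRNA mt-Tq, a short gene, stood at 148 ± 58.1 and 164 ± 48.0. The highest messenger on this scale was mt-Nd6, a subunit of respiratory complex I, at 103 ± 35.0 and 105 ± 16.8. mt-Nd6, mt-Tq, mt-Te and mt-Tp are among the 9 of 37 mitochondrial genes annotated on the strand opposite to the rest. The strand used in counting is not given in the sources used here, so their reads and reads antisense to them cannot be told apart. mt-Nd1, another complex I subunit, followed at 74.5 ± 26.2 and 95.1 ± 7.69, and mt-Cytb, the mitochondrially encoded subunit of complex III, at 70.2 ± 23.8 and 94.3 ± 7.41. mt-Nd2 came next at 52.5 ± 14.4 and 62.2 ± 4.52. For mt-Nd1 and mt-Nd2 the difference between the classes was smaller than the SD over the dominated sums, and for mt-Cytb it was about as large as that SD.

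Because the ribosomal RNA share moved, the messengers were also set against one another alone. Of the UMIs of the 13 mitochondrial protein-coding genes, mt-Cytb took 20.1% and 20.1% in Akita and 21.0% and 19.6% in wild type in dominated barcodes, against 22.5% and 21.3% in Akita and 23.0% and 22.7% in wild type in reference barcodes. It was lower in dominated barcodes in all 4 libraries. mt-Nd1 was also lower in all 4, with means of 17.9% ± 1.11 in dominated and 18.9% ± 0.926 in reference barcodes. mt-Nd6 was higher in all 4, at 13.4% and 14.0% in Akita and 13.5% and 12.6% in wild type, against 10.4% and 12.3% in Akita and 11.9% and 10.3% in wild type.

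The complex I messengers mt-Nd2, mt-Nd4 and mt-Nd3 were likewise higher in dominated barcodes in all 4 libraries, by small amounts. mt-Nd2 averaged 13.9% ± 0.730 in dominated and 13.4% ± 0.549 in reference barcodes, mt-Nd4 10.8% ± 0.264 and 10.5% ± 0.272, and mt-Nd3 1.58% ± 0.285 and 1.35% ± 0.301. mt-Co1, the catalytic subunit of complex IV, averaged 12.4% ± 0.499 and 12.7% ± 0.676. mt-Nd5 averaged 9.78% ± 0.938 and 9.50% ± 0.640. The order of these messengers by UMIs was led by mt-Cytb and mt-Nd1 in both classes of every library.

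The remaining 5 messengers were almost uncounted. In all dominated barcodes together, mt-Co2 had 6 UMIs, mt-Co3 had 7, mt-Atp6 had 6, mt-Nd4l had 2 and mt-Atp8 had 0 of 1090762 mitochondrial UMIs, which allows a share of up to 0.000275%. Nuclear genes that match these messengers had more. Gm13341, on chromosome 2 from 22587291 to 22587962, resembles mt-Co2 and had 3336 UMIs in dominated barcodes. Gm28437, on chromosome 1 from 24613189 to 24613971, is 100% identical to mt-Co3 over 783 bases and had 748 UMIs. Gm10925, identical to mt-Atp6 over 678 bases, had 99, and Gm10222, identical to mt-Nd4l over 294 bases, had 28. Both lie beside Gm28437 and Gm28661 on chromosome 1. How many of these UMIs came from mitochondrial RNA was not tested.

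Nuclear genes matching a mitochondrial transcript over at least 50 bases at 90% identity or more numbered 17 with a UMI. They took 1.86% and 1.51% of the nuclear UMIs of dominated barcodes in Akita and 2.36% and 1.31% in wild type, against 0.228% and 0.138% in Akita and 0.184% and 0.162% in wild type in reference barcodes. Set against mitochondrial UMIs instead, the classes overlapped. Per 10000 mitochondrial UMIs these genes had 63.8 and 54.4 UMIs in Akita and 105.6 and 59.7 in wild type in dominated barcodes, against reference values of 94.1 and 59.6 in Akita and 71.4 and 76.0 in wild type.

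Mitochondrial tRNAs were sparse, and 15 of the 22 had a UMI in dominated barcodes. They took between 1.09% and 2.35% of mitochondrial UMIs there and between 1.58% and 2.56% in reference barcodes. mt-Tq alone held 11741 of these UMIs, mt-Te 2384 and mt-Tp 1857. mt-Te, the glutamate tRNA, had a lower share of mitochondrial UMIs in dominated than in reference barcodes in all 4 libraries.

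The library sums concealed a wide spread among individual barcodes. The median ribosomal RNA share of a dominated barcode's mitochondrial UMIs was 88.5% and 51.6% in Akita and 42.0% and 80.1% in wild type, against reference medians of 61.7% and 51.5% in Akita and 48.9% and 59.1% in wild type. Single dominated barcodes ranged from 8.95% to 99.4% in Akita replicate 1 and from 7.74% to 98.5% in wild-type replicate 1. At least 90% of the mitochondrial UMIs were ribosomal RNA in 695 and 123 dominated barcodes in Akita and in 105 and 515 in wild type. These were 48.0% and 11.0% of the dominated barcodes in Akita and 8.68% and 40.9% in wild type. Among reference barcodes, 2 and 12 in Akita and 2 and 11 in wild type reached that share. With shared barcodes left out, it was reached by 16.1% of the dominated barcodes of Akita replicate 2 and 12.0% of those of wild-type replicate 1.

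Shared barcodes were unevenly placed in this range. They made up 64.7% and 43.3% of the dominated barcodes under 50% ribosomal RNA in Akita replicate 2 and wild-type replicate 1, but 6.50% and 7.62% of those at 90% or more. Depth moved with the share as well. The 54 and 60 dominated barcodes in Akita and 115 and 52 in wild type with at least 200 genes had ribosomal RNA at 38.6% and 32.1% of summed mitochondrial UMIs in Akita and 31.1% and 38.3% in wild type. Dominated barcodes with fewer genes had 75.7% and 56.0% in Akita and 49.7% and 73.9% in wild type. In Akita replicate 2, 96.7% of the members with at least 200 genes were shared barcodes, and in wild-type replicate 1 95.7% were. Restricting the members to those with at least 200 genes turned the difference between dominated and reference barcodes to a mean of −14.8 percentage points.

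**Figure D2:**
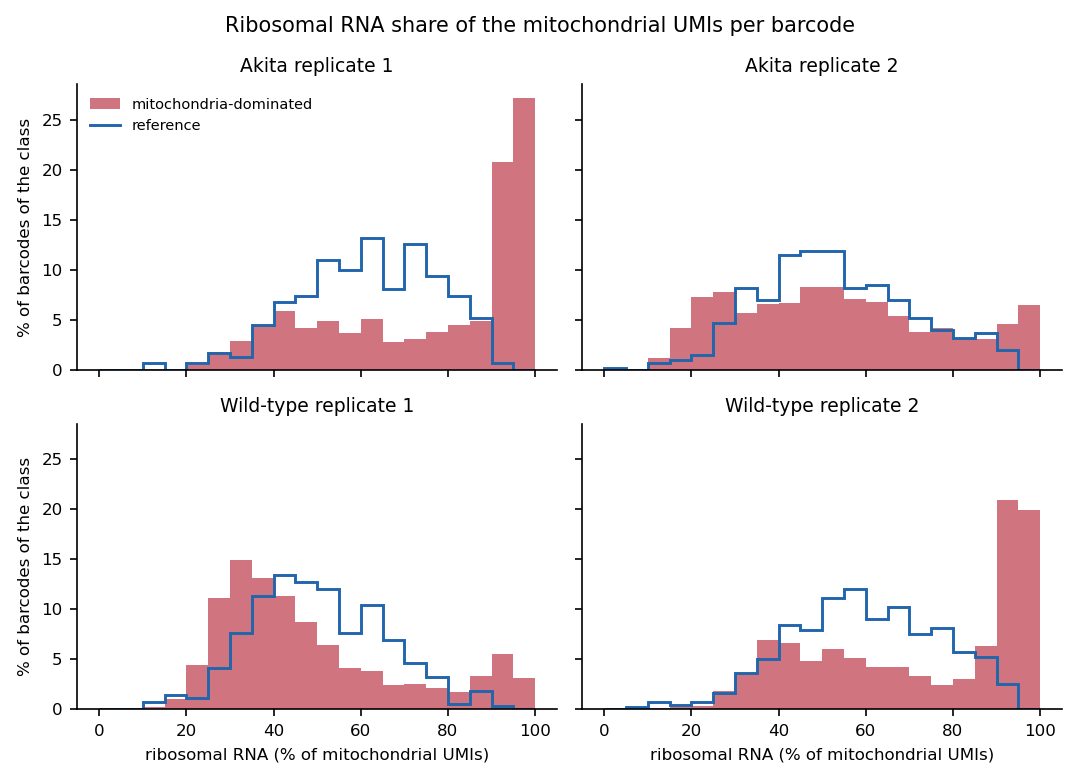
Distribution over barcodes of the ribosomal RNA share of mitochondrial UMIs (%), as percent of barcodes in each class, for barcodes with at least 20 mitochondrial UMIs. Dominated barcodes (filled) pile up at 90% and above in Akita replicate 1 and wild-type replicate 2, where reference barcodes (line) hold 0.643% and 2.49%, and spread over lower shares in Akita replicate 2 and wild-type replicate 1.

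The nuclear content of dominated barcodes changed along this range in every library. The split by ribosomal RNA share was chosen after the data were seen and is a description with no test. Values are in nuclear CPM, UMIs per 1000000 nuclear UMIs of the summed class. Malat1, a long non-coding RNA retained in the nucleus, stood at 10156 and 7908 in Akita and 8109 and 7475 in wild type in dominated barcodes under 50% ribosomal RNA. In those at 90% or more it stood at 29309 and 28878 in Akita and 26550 and 22785 in wild type. The reference barcodes had 23653 and 28333 in Akita and 27054 and 16302 in wild type. The dominated barcodes with little ribosomal RNA were thus below the reference in all 4 libraries, and those with the most were close to it or above it.

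Slc12a3, the sodium-chloride cotransporter of the distal convoluted tubule, followed the same order. It stood at 1858 and 825 CPM in Akita and 1235 and 1664 in wild type under 50%, and at 6757 and 4433 in Akita and 2972 and 4286 in wild type at 90% or more. Reference barcodes had 2725 and 1666 in Akita and 1456 and 1517 in wild type. The 7 markers of the distal convoluted tubule summed to 0.861% and 0.672% of nuclear UMIs in Akita and 0.654% and 0.669% in wild type at 90% or more, against reference sums of 0.396% and 0.332% in Akita and 0.289% and 0.305% in wild type. The proximal tubule markers went the other way, at 6.27% and 6.28% in Akita and 4.93% and 7.03% in wild type under 50%, and 4.69% and 5.05% in Akita and 3.71% and 5.75% in wild type at 90% or more. Nuclear-encoded subunits of oxidative phosphorylation took 6.25% and 6.66% in Akita and 6.71% and 5.99% in wild type under 50%, and 4.24% and 5.13% in Akita and 5.29% and 4.77% in wild type at 90% or more.

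**Figure D3:**
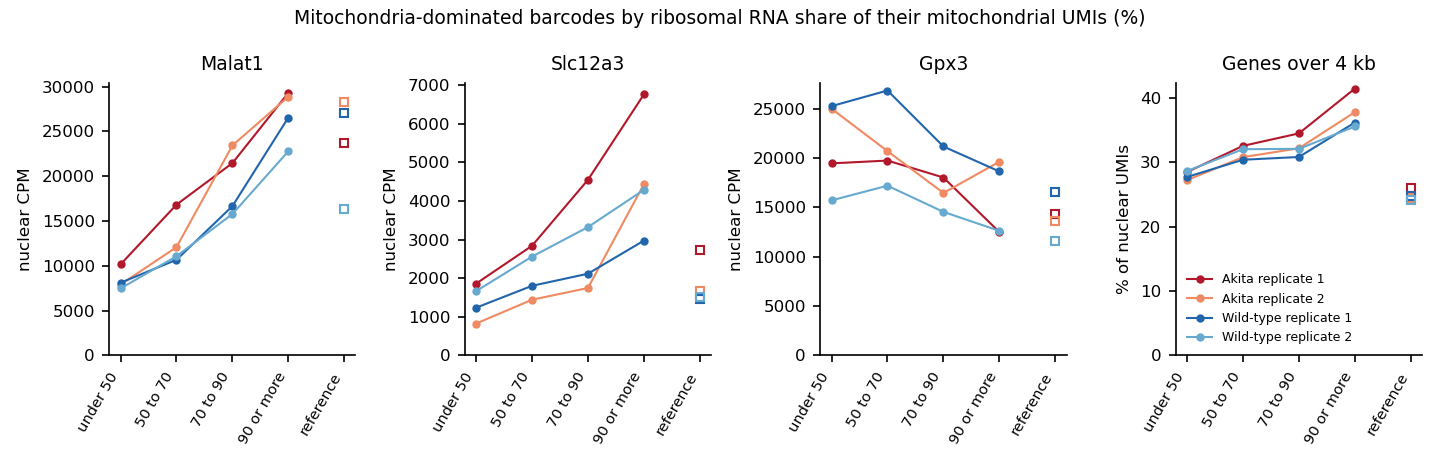
Malat1, Slc12a3 and Gpx3 (nuclear CPM) and the percent of nuclear UMIs from genes whose longest transcript exceeds 4 kb, in dominated barcodes grouped by ribosomal RNA share of mitochondrial UMIs, with 1 line for each library. Open squares are the reference barcodes of the same library, and Malat1, Slc12a3 and long genes are lowest under 50% and highest at 90% or more in each library.

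Transcripts of the proximal tubule were among the most abundant nuclear transcripts of dominated barcodes. The 10 nuclear genes with the most UMIs in dominated barcodes included Kap, Gpx3, Malat1, Acsm2, Gm13341, Fth1, Fxyd2, Gm13340 and Gpx1, and 8 of the 10 were among the top 10 of reference barcodes too. These 10 took 11.1% and 12.0% of nuclear UMIs in Akita and 11.0% and 11.2% in wild type, against 10.3% and 12.4% in Akita and 11.8% and 10.8% in wild type in reference barcodes. Across 1823 to 1967 genes per library above 100 CPM, the log2 nuclear CPM of the classes had a Pearson correlation between 0.82 and 0.89, a description across genes of the same library. Dominated barcodes detected between 9534 and 10552 nuclear genes per library in all, against 15208 to 15815 in reference barcodes.

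Nuclear counts were summed over each class in each library and compared by edgeR's quasi-likelihood test with the library as a block. Of 4641 nuclear genes tested, 481 (10.4%) were higher in dominated barcodes and 412 (8.88%) lower, at a Benjamini-Hochberg adjusted p under 0.05. With the shared barcodes left out, 181 were higher and 126 lower of 1610 tested. Without Akita replicate 2, 287 were higher and 264 lower. DESeq2 called 206 higher and 188 lower, all of them among edgeR's calls. Nuclear CPM is a relative scale, so a class in which some genes take more has less left for the others.

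Kap, a proximal tubule protein under androgen control, had the most nuclear UMIs, at 32118 and 40868 CPM in Akita and 23560 and 42832 in wild type in dominated barcodes. Reference barcodes had 30696 and 49139 in Akita and 38916 and 44533 in wild type. The classes overlapped, and the log2 difference of −0.26 (SE 0.12) missed the threshold in edgeR (adjusted p = 0.12). Gpx3, the glutathione peroxidase that the proximal tubule secretes into plasma, rose by 0.46 (SE 0.11, adjusted p = 0.0018 in edgeR). It stood at 16930 and 22523 CPM in Akita and 24937 and 14867 in wild type, against 14356 and 13570 in Akita and 16596 and 11622 in wild type. It was higher in every library, although the ranges of the classes overlapped. Gpx3 no longer passed without Akita replicate 2 (0.36), with shared barcodes left out (0.26), with no filter on low counts (0.23), with no library block (0.48), with dominated barcodes of at least 200 genes (0.41) or with those over 75% mitochondrial (0.24). In dominated barcodes of at least 90% ribosomal RNA the edgeR value was −0.46 (edgeR adjusted p = 0.37), in a fit whose median over 3888 genes was −0.34. Its CPM there was 12488 and 19610.5 in Akita and 18625 and 12611 in wild type, below the reference only in Akita replicate 1.

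Acsm2, a mitochondrial medium-chain acyl-CoA synthetase of the proximal tubule, was higher in all 4 libraries with no overlap. It had 8029 and 9719 CPM in Akita and 7646 and 7828 in wild type in dominated barcodes, against 4828 and 4834 in Akita and 4824 and 5006 in wild type in reference barcodes. The log2 difference was 0.75 (SE 0.10, edgeR adjusted p = 9.2e-07), and 0.71 with shared barcodes left out. In dominated barcodes of at least 90% ribosomal RNA it was −0.05, in a fit whose median over 3888 genes was −0.34. The CPM of Acsm2 there was 7698 and 8999 in Akita and 6539 and 5550 in wild type, above the reference in every library. Gpx1, the cytosolic glutathione peroxidase, had a log2 difference of −0.15 (edgeR adjusted p = 0.35).

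Malat1 fell, at 19016 and 12353 CPM in Akita and 9577 and 13764 in wild type in dominated barcodes, against 23653 and 28333 in Akita and 27054 and 16302 in wild type. It was lower in all 4 libraries by a log2 difference of −0.83 (SE 0.14, edgeR adjusted p = 2.9e-05). DESeq2 gave −0.85 and did not call it (adjusted p = 0.061). The difference in edgeR was −0.37 and missed the threshold with shared barcodes left out, −2.04 in dominated barcodes of at least 200 genes, and −0.41 in those of at least 90% ribosomal RNA, where it missed the threshold too. The median over 3888 genes in that last fit was −0.34, and the CPM of Malat1 there was close to the reference or above it, as given above. Neat1, the scaffold RNA of nuclear paraspeckles, fell by 0.55 on the log2 scale (SE 0.12, edgeR adjusted p = 0.00082), a call lost with shared barcodes left out (−0.40). It stood at 1860 and 945 CPM in Akita and 1930 and 1389 in wild type in dominated barcodes, against 2513 and 2054 in Akita and 2391 and 1786 in wild type. Of the 5 tested genes listed as nuclear-retained long non-coding RNAs, 2 fell (these) and 1 rose. As shares, 40% fell and 20% rose, beside 8.88% and 10.4% over all genes tested. The riser was Kcnq1ot1, which is transcribed antisense to Kcnq1, so that without a known counting strand the pair cannot be told apart. Its log2 difference of 0.70 (edgeR adjusted p = 0.047) missed the threshold without Akita replicate 1 (0.18), Akita replicate 2 (0.88) or wild-type replicate 2 (0.65), and was −2.09 in dominated barcodes of at least 200 genes. The median of the 5 was −0.55, beside 0.03 over all genes tested.

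Among genes of at least 200 CPM, the largest rises belonged to nuclear genes that resemble mitochondrial transcripts. Of the 12 called genes with the largest log2 differences, at least 200 CPM and the same direction in all 4 libraries, 9 matched a mitochondrial transcript. Gm13341 had 8049 and 6664 CPM in Akita and 9779 and 5441 in wild type in dominated barcodes, against 853 and 621 in Akita and 755 and 612 in wild type, a log2 difference of 3.36 (SE 0.11, edgeR adjusted p = 4.1e-24). Gm28661, shown above, had 3.43, and Gm13340, which is 97.6% identical to mt-Co1 over 1545 bases, had 3.24. Gm29216, Gm28437, Gm10925, Gm4076, Gm11410 and Gm11407 lay between 2.79 and 3.31. These values are not independent of the rule to the extent that mitochondrial reads were counted at these genes. In dominated barcodes of at least 90% ribosomal RNA, which hold few mitochondrial messengers, the log2 differences were −0.45 for Gm13341, −0.53 for Gm13340, −0.56 for Gm28437 and −0.41 for Gm11410. For Gm29216 and Gm4076 they were 0.16 and 0.48, and all of these missed the threshold. The median over 3888 genes in that fit was −0.34. Leaving all matching genes out gave 472 higher and 406 lower calls.

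The other 3 of these 12 were haemoglobin genes, Hba-a2, Hba-a1 and Hbb-bs, which mark red blood cells. Hbb-bs stood at 274 and 1868 CPM in Akita and 352 and 485 in wild type in dominated barcodes, against 49.0 and 362 in Akita and 265 and 89.6 in wild type in reference barcodes. It was higher in each library, highest in Akita replicate 2, and the ranges of the classes overlapped. Its log2 difference was 1.83 (SE 0.21, edgeR adjusted p = 1.5e-08), 2.92 with shared barcodes left out and 1.51 without Akita replicate 2. Hba-a2 rose by 2.5 and Hba-a1 by 2.11, and Hbb-bt, the fourth globin tested, by 1.55 on the log2 scale, a call lost without Akita replicate 2 (1.56). The paired globin genes are near-identical copies between which reads may be split. In dominated barcodes of at least 200 genes the 4 differences were 0.16 to 0.75 and missed the threshold. All 4 tested erythrocyte markers rose, beside 10.4% of all genes tested. The list of 5 took 0.0539% and 0.346% of nuclear UMIs in Akita and 0.0621% and 0.0970% in wild type, against 0.00758% and 0.0650% in Akita and 0.0477% and 0.0133% in wild type.

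Falling genes were often short. Among the 12 called genes with the largest falls under the same rule were Atp6v1g3 and Ndufb4, Atp5g2, Ces2c, Serf2 and 7 genes with predicted-gene names. Atp6v1g3, a subunit of the proton pump of intercalated cells, stood at 176 and 325 CPM in Akita and 157 and 295 in wild type in dominated barcodes, against 365 and 867 in Akita and 600 and 679 in wild type. Its ranges did not overlap between classes, and the log2 difference was −1.43 (SE 0.16, edgeR adjusted p = 1.5e-08). It was −0.65 and missed the threshold with shared barcodes left out. Ndufb4, an accessory subunit of complex I, had 225 and 262 CPM in Akita and 187 and 209 in wild type, against 528 and 561 in Akita and 500 and 455 in wild type, a log2 difference of −1.24 (SE 0.16, edgeR adjusted p = 3.2e-07).

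Ces2c, a carboxylesterase, fell by 1.39 on the log2 scale, with 157 and 241 CPM in Akita and 195 and 181 in wild type against 370 and 530 in Akita and 497 and 602 in wild type (edgeR adjusted p = 8.4e-08). Atp5g2, one of the genes for subunit c of ATP synthase, fell by 1.31 and Serf2 by 1.12. The predicted genes Gm12338, Gm10039, Gm2962, Gm6977, Gm10250, Gm13771 and Gm5514 lay between −1.70 and −1.16. The classes did not overlap for any of these 12. They were picked for large falls in all 4 libraries, which favours such a separation, so it adds no support.

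**Figure D4:**
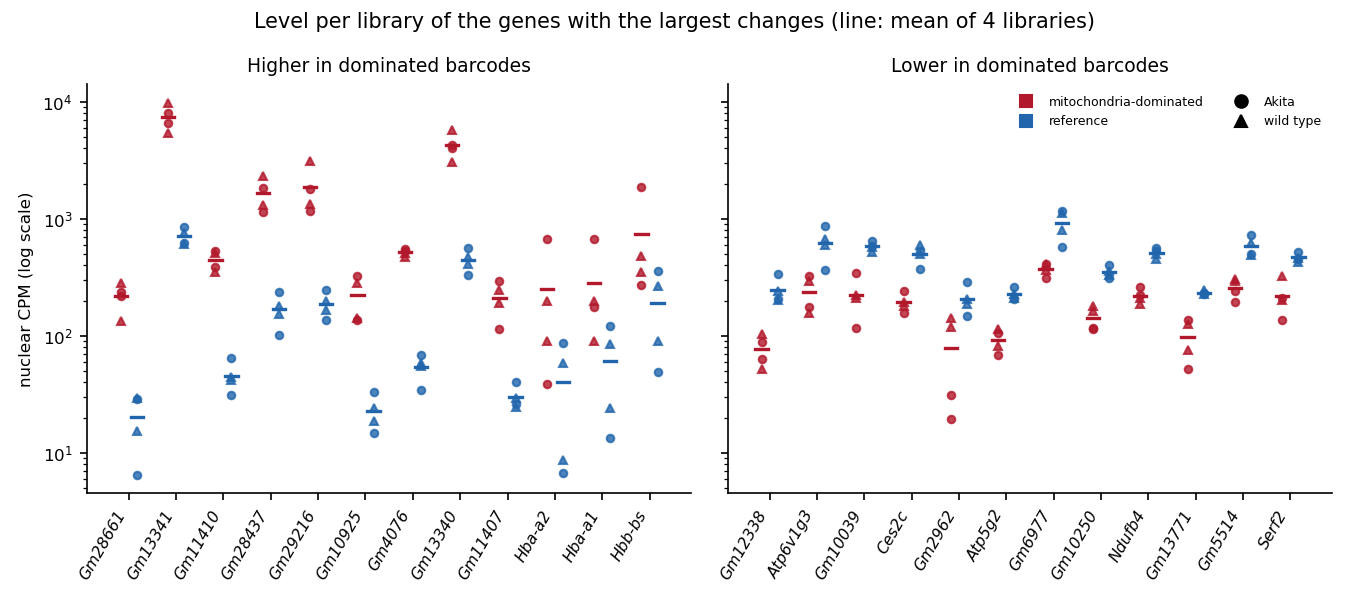
Nuclear CPM (log scale) per library of the 12 called genes with the largest rises and the 12 with the largest falls in dominated barcodes. Red points are dominated and blue points reference barcodes, circles are Akita and triangles wild type, and lines are means of 4 libraries. The classes overlap for the globin genes and are apart for the others.

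Transcripts for the oxidative machinery that the nucleus encodes fell together as a list. Of 80 tested subunits of the respiratory chain and ATP synthase, 48 fell, 0 rose and 32 did not pass, with a median log2 difference of −0.45 beside 0.03 over all genes tested. That is 60% lower and 0% higher, beside 8.88% and 10.4% over all genes tested. The list took 5.44% to 6.62% of nuclear UMIs in dominated barcodes and 7.51% to 8.79% in reference barcodes, ranges that did not overlap. Cox6c, a subunit of complex IV, fell by 0.63 on the log2 scale, with 1880 and 2613 CPM in Akita and 2409 and 1931 in wild type against 2968 and 3899 in Akita and 3725 and 2932 in wild type (edgeR adjusted p = 1.6e-05). Cox7b fell by 0.63, Cox6a1 by 0.60 and Cox4i1 by 0.29, and Cox4i1 no longer passed with shared barcodes left out (−0.21), nor without Akita replicate 1 (−0.28), Akita replicate 2 (−0.26) or wild-type replicate 2 (−0.31). DESeq2 called 37 of the 80 lower and 0 higher, and in edgeR 58 had an unadjusted p under 0.05.

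Of 79 tested messengers of the cytosolic ribosome, 49 fell, 0 rose and 30 did not pass, with a median of −0.49. That is 62.0% lower and 0% higher, beside 8.88% and 10.4% over all genes tested. The list's share of nuclear UMIs was 2.74% to 3.55% in dominated barcodes, against 4.25% to 4.47% in reference barcodes. Rpl41 had 803 and 1133 CPM in Akita and 1339 and 923 in wild type, against 1691 and 1479 in Akita and 1517 and 1643 in wild type, a log2 difference of −0.61 (edgeR adjusted p = 0.00045). Rplp1 at −0.25 and Rpsa at 0.33 did not pass. DESeq2 called 36 of the 79 lower and 0 higher, and in edgeR 64 had an unadjusted p under 0.05.

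Of 74 tested mitochondrial ribosomal proteins, 12 fell and 1, Mrpl10, rose, with a median of −0.21. These 13 calls are 17.6% of the list, near the 19.2% called over all genes tested. By direction they are 16.2% lower and 1.35% higher, beside 8.88% and 10.4% over all genes. The list took 0.612% to 0.736% of nuclear UMIs in dominated barcodes and 0.768% to 0.817% in reference barcodes, ranges that did not overlap. DESeq2 called 1 lower and 0 higher. Mrps21 fell by 0.76 and Mrpl42 by 0.48 on the log2 scale, and both missed the threshold with shared barcodes left out. Mrpl42 also missed it without Akita replicate 2 (−0.41), wild-type replicate 1 (−0.49) or wild-type replicate 2 (−0.52). Of 27 tested enzymes of the mitochondrial matrix, 4 rose (Glud1, Acsm2, Aldh4a1 and Pcx) and 3 fell (Etfa and Etfb among them), with a median of −0.13. That is 14.8% higher and 11.1% lower, near the 10.4% and 8.88% over all genes tested. DESeq2 called 2 of the 27 higher and 0 lower. The list took 1.85% to 2.16% of nuclear UMIs in dominated barcodes and 1.67% to 1.75% in reference barcodes, so its summed level was higher in all 4 libraries although its median was below 0. Of 5 tested factors that copy, transcribe or process mitochondrial DNA and RNA, 0 passed, and of 7 genes of mitochondrial stress and mitophagy, 0 passed, among them Pink1 at 0.41 (edgeR adjusted p = 0.17). In both lists, edgeR gave 0 an unadjusted p under 0.05 and DESeq2 called 0.

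Of 19 tested transporters and endocytic receptors of the proximal tubule, 3 rose, 3 fell and 13 did not pass, with a median of 0.10. That is 15.8% in each direction, beside 10.4% higher and 8.88% lower over all genes tested. Slc4a4, the basolateral sodium bicarbonate cotransporter, rose by 0.60 on the log2 scale, with 2536 and 2309 CPM in Akita and 2506 and 2159 in wild type against 1713 and 1500 in Akita and 1736 and 1281 in wild type (edgeR adjusted p = 4.2e-05). Slc7a13 and Slc13a1 were the other 2 that rose. Atp1b1, the beta subunit of the sodium pump, fell by 0.54, with 2076 and 2152 CPM in Akita and 2207 and 2673 in wild type against 3099 and 3419 in Akita and 3106 and 3467 in wild type (edgeR adjusted p = 0.0002). Neither gene's values overlapped between classes. The phosphate transporter Slc34a1 had 0.15 (edgeR adjusted p = 0.33), and the endocytic receptor Lrp2 −0.08 (edgeR adjusted p = 0.68).

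Of 16 small abundant messengers, 8 fell and 1, Gpx3, rose, with a median of −0.29. That is 50% lower and 6.25% higher, beside 8.88% and 10.4% over all genes tested. Cox4i1, one of the 8, also counts among the oxidative phosphorylation genes above. Fth1, the ferritin heavy chain, fell by 0.33, and Fxyd2, a regulator of the sodium pump, by 0.30 on the log2 scale. Fth1 missed the threshold without Akita replicate 1 (−0.29), Akita replicate 2 (−0.34) or wild-type replicate 2 (−0.33), and Fxyd2 without Akita replicate 2 (−0.27), wild-type replicate 1 (−0.32) or wild-type replicate 2 (−0.28). Of 9 heat shock genes, Hsp90aa1 rose and Hspa8 and Hspe1 fell, and the 2 called genes with the highest levels moved in opposite directions. The 3 calls are 33.3% of this short list, beside 19.2% called over all genes tested. Hsp90aa1 had 979 and 1627 CPM in Akita and 1175 and 1703 in wild type, against 700 and 822 in Akita and 772 and 1041 in wild type, a log2 difference of 0.69 (edgeR adjusted p = 2.2e-05). That difference was −0.41 in dominated barcodes of at least 90% ribosomal RNA, in a fit whose median over 3888 genes was −0.34. Hspa8 had 1097 and 1595 CPM in Akita and 1092 and 1836 in wild type, against 2368 and 1940 in Akita and 1645 and 2586 in wild type, a log2 difference of −0.63 (edgeR adjusted p = 0.00013). Immediate early genes respond within minutes to stimuli such as dissociation, and only 4 of the 20 listed had enough UMIs to be tested. Of these 4, 0 passed in edgeR (0 at an unadjusted p under 0.05) or in DESeq2. The whole list took 0.0178% to 0.0257% of nuclear UMIs in dominated barcodes, on 104 UMIs. In reference barcodes it took 0.0280% to 0.0332%, so its summed level was lower in dominated barcodes in all 4 libraries. Of 4 tested tubular injury genes (10 are listed), Clu fell by 0.54 on the log2 scale. Clu missed the threshold with shared barcodes left out (−0.40) and without Akita replicate 2 (−0.36) or wild-type replicate 1 (−0.51).

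Transcript length went with the direction of change across the whole table. Length is that of the longest annotated transcript, and the genes matching mitochondrial transcripts were set aside. Of 137 genes of at most 0.5 kb, 2 rose and 68 fell, with a median log2 difference of −0.84. Of 357 genes from 0.5 to 1 kb, 10 rose and 134 fell, with a median of −0.50. Of 1319 genes from 4 to 8 kb, 228 rose and 20 fell (median 0.29), and of 306 genes over 8 kb, 107 rose and 2 fell (median 0.56). The Spearman correlation between length and log2 difference was 0.53 across 4625 genes, which are not independent replicates. It was 0.66 with shared barcodes left out and 0.25 with dominated barcodes of at least 200 genes, where the median of genes over 4 kb was 0.06.

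Short genes also fell outside the 2 large lists. Of 422 tested genes of at most 1 kb that belong to neither the ribosomal nor the oxidative phosphorylation list, 12 rose and 148 fell, with a median of −0.59. The ribosomal genes of that length numbered 34, with 28 falling and a median of −0.65, and the oxidative phosphorylation genes 38, with 26 falling and a median of −0.51. Longer members of both lists had negative medians too, as a description with no test of the lists. From 1 to 2 kb, 15 of 31 ribosomal and 13 of 25 oxidative phosphorylation genes fell (medians −0.41 and −0.35), beside 107 of 843 genes in all (median −0.19). From 2 to 4 kb, 5 of 12 and 7 of 13 fell (medians −0.40 and −0.42), beside 81 of 1663 in all (median 0.04). Over 4 kb, 1 of 2 and 2 of 4 fell and 0 rose (medians −0.48 and −0.42), beside 335 higher and 22 lower of 1625 in all (median 0.32). Processed pseudogenes, whose median length was 456 bases, accounted for 189 tested genes, of which 2 rose and 82 fell. Many of these are near-identical to a parent gene, so reads may be split between them. Within a length bin, the medians differed little with the longest run of A in the transcript. From 4 to 8 kb, the medians over 5 bins of A-run length ranged from 0.18 to 0.33, and from 1 to 2 kb from −0.28 to −0.14. The shares called differed more: from 4 to 8 kb, 9.88% rose where the longest run was at most 5 A, against 16.4% to 19.7% in the other bins.

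In the summed nuclear UMIs, genes over 4 kb took 34.3% and 29.5% in Akita and 28.5% and 31.8% in wild type in dominated barcodes, against 26.0% and 24.5% in Akita and 24.7% and 24.1% in wild type in reference barcodes. The classes did not overlap. In dominated barcodes under 50% ribosomal RNA the share was 28.5% and 27.2% in Akita and 27.7% and 28.7% in wild type, and in those of at least 90% it was 41.5% and 37.8% in Akita and 36.2% and 35.6% in wild type.

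**Figure D5:**
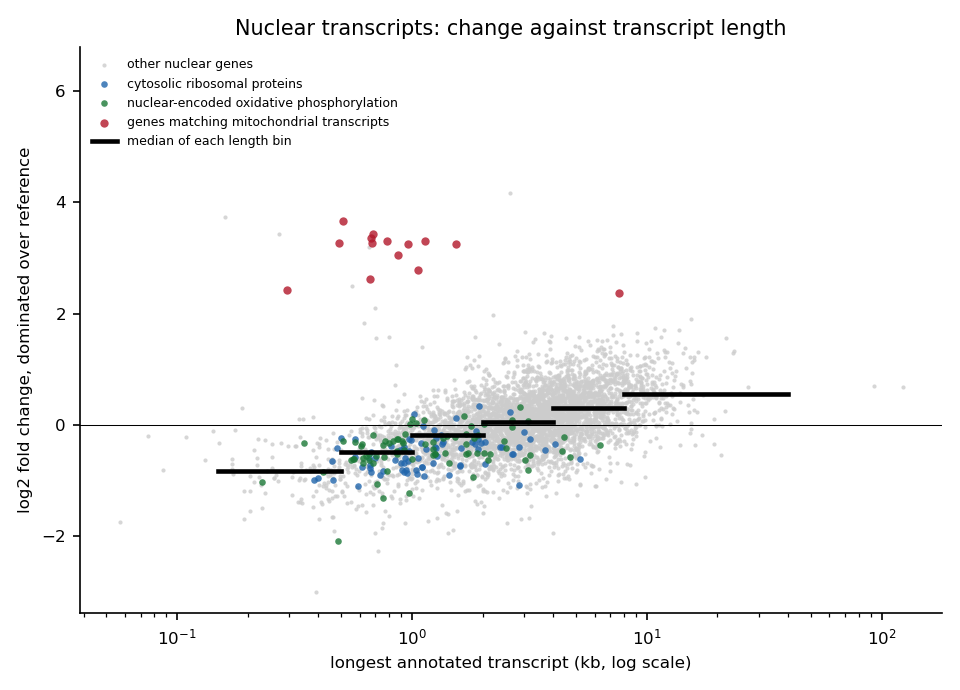
Log2 fold change of dominated over reference barcodes against the longest annotated transcript (kb, log scale), 1 point for each tested nuclear gene, with black bars at the median of each length bin (−0.84 up to 0.5 kb, 0.56 over 8 kb). Ribosomal protein and oxidative phosphorylation genes up to 1 kb have medians of −0.65 and −0.51, and those over 4 kb −0.48 and −0.42, below the other genes of that length, while genes matching mitochondrial transcripts lie far above.

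Markers of tubule segments gave mixed counts. Of 17 proximal tubule markers, 1 rose (Slc7a13), 4 fell and 12 did not pass, with a median of 0.01. That is 5.88% higher and 23.5% lower, beside 10.4% and 8.88% over all genes tested. The list took 4.91% to 6.57% of nuclear UMIs in dominated barcodes and 5.57% to 7.15% in reference barcodes, lower in dominated barcodes in all 4 libraries. Of 8 thick ascending limb markers, 4 fell (50%) and 1, the cotransporter Slc12a1, rose (12.5%), beside 8.88% and 10.4% over all genes tested. Umod, the uromodulin of urine, had 372 and 451 CPM in Akita and 322 and 542 in wild type, against 789 and 655 in Akita and 608 and 453 in wild type, a log2 difference of −0.58 (edgeR adjusted p = 0.0085) that missed the threshold without either Akita replicate 1 (−0.44) or Akita replicate 2 (−0.60), and with shared barcodes left out (−0.21). Egf, a growth factor of that segment, fell by 0.63 and Wfdc15b by 0.86 on the log2 scale. With shared barcodes left out Egf was at −0.21 and missed the threshold, while Wfdc15b was at −0.68 and kept it.

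Among 6 tested distal convoluted tubule markers, Wnk1 rose by 0.40 on the log2 scale and Pvalb fell. That is 16.7% in each direction, beside 10.4% higher and 8.88% lower over all genes tested. Wnk1 missed the threshold without Akita replicate 1 (0.38) or wild-type replicate 2 (0.24), and was −0.73 in dominated barcodes of at least 200 genes. Slc12a3 had 3995 and 1364 CPM in Akita and 1414 and 2816 in wild type, against 2725 and 1666 in Akita and 1456 and 1517 in wild type, a log2 difference of 0.29 that did not pass (edgeR adjusted p = 0.11). It was higher in dominated barcodes in Akita replicate 1 and wild-type replicate 2, the libraries richest in ribosomal RNA, and lower in the other pair. Of 4 connecting tubule and principal cell markers, the water channel Aqp3 rose by 1.07 and the calcium-binding protein S100g fell by 0.32. Each direction thus holds 25% of this short list. Aqp3 missed the threshold without Akita replicate 1 (0.94), Akita replicate 2 (0.88) or wild-type replicate 1 (0.78), and S100g without Akita replicate 2 (−0.21), wild-type replicate 1 (−0.32) or wild-type replicate 2 (−0.38). Of 3 intercalated cell markers, Atp6v1g3 and Atp6v0d2 fell and Slc26a4 at 0.26 did not pass. These falls are 66.7% of the list, beside 8.88% lower over all genes tested. Fewer barcodes of a segment and less of its RNA in each barcode cannot be told apart in these sums.

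Markers of cells outside the tubule were close to absent from both classes. Endothelial markers had 12 UMIs in all dominated barcodes, podocyte markers 35, mesenchymal markers 14, macrophage or dendritic cell markers 42 and lymphocyte markers 2, beside 570 for erythrocyte and 25268 for proximal tubule markers. Reference barcodes, with more nuclear UMIs in all, had 12, 22, 17, 320 and 21 UMIs of these 5 lists. As shares of nuclear UMIs, podocyte markers averaged 0.00820% in dominated and 0.000969% in reference barcodes, endothelial markers 0.00263% and 0.000529%, and mesenchymal markers 0.00341% and 0.000766%. These 3 shares were higher in dominated barcodes in all 4 libraries, on few UMIs, and their part in the other results was not tested. The macrophage or dendritic cell share was lower in all 4. None of the endothelial, podocyte, mesenchymal or lymphocyte markers had enough UMIs to be tested. Podxl and Cdkn1c, both expressed in podocytes, had 5 and 9 UMIs in the dominated barcodes of wild-type replicate 2, and 1 or 2 in each other library.

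Transcripts of the proximal tubule also appeared in dominated barcodes that carried a distal transcript. Every barcode was thinned to 30 nuclear UMIs, which left out 200 and 158 dominated barcodes in Akita and 96 and 32 in wild type, and no reference barcode. Among barcodes with a thinned UMI of Slc12a3, Slc12a1 or Umod, which proximal tubule cells lack, Kap was seen in 53.6% and 65.1% of dominated barcodes in Akita and in 39.2% and 72.0% in wild type. In reference barcodes it was seen in 18.5% and 9.68% in Akita and 5.56% and 33.3% in wild type. The exact 95% intervals in dominated barcodes were 46.3% to 60.7% and 53.8% to 75.2% in Akita and 28.4% to 50.9% and 64.1% to 79.0% in wild type. In reference barcodes they were 6.30% to 38.1% and 2.04% to 25.8% in Akita and 0.680% to 18.7% and 16.5% to 54.0% in wild type. These rest on 196 and 83 dominated barcodes in Akita and 79 and 150 in wild type, and on 27 to 36 reference barcodes per library, and they cover counting error only.

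Barcodes without such a distal UMI had Kap in 62.1% and 64.6% of dominated barcodes in Akita and 44.1% and 69.6% in wild type, against 49.3% and 49.9% in Akita and 42.8% and 57.5% in wild type in reference barcodes. Within the dominated class, barcodes without a distal UMI minus those with one gave 8.54 and −0.45 percentage points in Akita and 4.82 and −2.39 in wild type. Within the reference class they gave 30.8 and 40.2 points in Akita and 37.2 and 24.2 in wild type. No order of the classes themselves is read from the Kap share, since Kap was not higher in nuclear CPM in dominated barcodes. Without thinning, Kap was seen in 68.4% to 90.3% of all dominated and 94.3% to 99.8% of all reference barcodes. These include barcodes with a distal UMI and those that thinning left out. What part free RNA and barcodes with more than one source had in these shares was not tested.

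Akita and wild type were compared within the dominated barcodes, with 2 libraries each. Dominated barcodes made up 74.0% and 56.3% of barcodes with at least 100 UMIs in Akita and 62.4% and 63.9% in wild type. The exact 95% intervals of these shares were 72.0% to 75.9% and 54.1% to 58.5% in Akita, and 60.2% to 64.5% and 61.7% to 66.0% in wild type. The means were 65.1% ± 12.5 in Akita and 63.1% ± 1.05 in wild type, a difference of 2.02 percentage points with the wild-type values inside the Akita range (exact two-sided permutation p = 1.00). Without Akita replicate 1 the difference was −6.81 points, and with shared barcodes left out −0.872.

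The median mitochondrial share of a dominated barcode was 77.1% and 77.8% in Akita and 72.1% and 71.4% in wild type, so that both Akita libraries lay above both wild-type libraries. The means were 77.5% ± 0.449 in Akita and 71.7% ± 0.555 in wild type. The members were chosen by their UMIs and their mitochondrial share, so these medians are given with no test. The median number of nuclear UMIs was lower in Akita, at 51.5 ± 6.36 against 60 ± 0 in wild type, and so was the number of genes, at 56.0 ± 7.07 against 65.5 ± 2.12. The ribosomal RNA share of mitochondrial UMIs was 61.0% ± 12.6 in Akita and 56.8% ± 17.8 in wild type, within the spread of the libraries.

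Across genes, edgeR called 0 of 2325 tested genes (0.0%) between Akita and wild type in dominated barcodes, with 48 at an unadjusted p under 0.05 and a smallest adjusted p of 0.998. DESeq2 called 0, with 6 at an unadjusted p under 0.05. None of the 22 tested mitochondrial genes was called. Genes among those with the smallest p in each direction are given as values. Acsm1, a mitochondrial acyl-CoA synthetase, had 65.0 and 41.8 CPM of all UMIs in Akita and 20.8 and 23.9 in wild type, a log2 difference of 1.55 (SE 0.49). Hba-a1 had a log2 difference of 1.58, with Akita replicate 2 far above the rest.

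On the lower side, Tmem258 had 17.5 and 25.1 CPM in Akita and 85.5 and 62.7 in wild type, a log2 difference of −1.53 (SE 0.46). The neutral amino acid transporter Slc6a19 had 30.0 and 64.0 in Akita and 228.8 and 80.6 in wild type, a log2 difference of −1.47 (SE 0.45), and Mtif2, a mitochondrial translation initiation factor, had −1.41 (SE 0.48). Each of these rests on 7 to 99 UMIs per library, and none passed the threshold. Without Akita replicate 1, the globins Hbb-bs, Hba-a2 and Hba-a1 were called higher in Akita, which then rests on Akita replicate 2 alone. Without Akita replicate 2, wild-type replicate 1 or wild-type replicate 2, the only gene called was Etv5 (higher), Pck1 (higher) or Slc6a19 (lower).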

How the data were processed

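The authors deposited raw UMI counts for each gene in each barcode. According to the submitters' processing notes, the tools were featureCounts 1.6.0, STAR 2.5.2b and UMI-tools 0.5.3, with the GRCm38 build. The counting strand and any filter on cells are not given in the sources used here. Per file, 4 barcode strings with an undetermined base or a base repeated at least 11 times were left out (1.08% to 1.33% of UMIs). Symbols, lengths and sequences came from the GENCODE annotation of GRCm38 (1-based coordinates), and blastn 2.17.0 found nuclear transcripts matching mitochondrial ones.

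Counts were summed per class and library. Nuclear genes of dominated and reference sums were compared with edgeR 4.0.16 in R 4.3.3 (filterByExpr, TMM, quasi-likelihood, library as a block, Benjamini-Hochberg adjustment, threshold 0.05), and Akita with wild type over all genes without a block. DESeq2 1.42.0, other filters, other limits of the rule, thinned sums and each library left out were alternatives, and edgeR was tested on simulated data. Barcodes were not used as replicates. The labels do not say whether the libraries of a group share a batch, so p-values measure the spread between these libraries only, and intervals cover counting error only.

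The members, gene lists and tests were chosen with earlier results of these data known. Genes named were the mitochondrial messengers and ribosomal RNAs, up to 12 called genes per direction with the largest change, at least 200 nuclear CPM and one direction in all 4 libraries, the 10 nuclear genes with most UMIs, and up to 4 members of each list. Between genotypes they were the called genes, or else the 3 per direction with the smallest p and at least 50 UMIs. Of the 481 higher and 412 lower calls, 201 and 229 met the rule for large changes. Other list members that were called are named after their values were seen. Some genes that these rules pick are not reported here.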

Additional observations from a re-analysis of the deposited data

Results flagged for a closer look

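Erythrocyte markers took 9.25% of the nuclear UMIs of the remaining barcodes of Akita replicate 2, those that were neither mitochondria-dominated nor reference barcodes. This lies in data that the comparisons do not use and above both wild-type libraries. The other remaining barcodes had 1.88% in Akita replicate 1, and 7.11% and 3.39% in wild-type replicates 1 and 2. Dominated barcodes had at most 0.346% and reference barcodes at most 0.0650%.

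For 4 list members the difference between dominated and reference barcodes went one way in both Akita libraries and the opposite way in both wild-type libraries. The difference between the genotypes was not tested. The share of all genes that split this way is not given, so the count of 4 is not read as a result. Some differences were small: in Akita replicate 2, Lrpprc had 199 CPM in dominated and 196 in reference barcodes. Lrp2 had 2468 and 2433 in Akita replicate 1. Mrps24, Mrpl20 and Lrpprc rest on 11 to 26 UMIs per library in dominated barcodes. On the scale of log2 of nuclear CPM plus 10, the mean of Akita minus the mean of wild type was −0.52 for Mrps24 and −0.59 for Mrpl20, both of the mitochondrial ribosome. It was 0.30 for the endocytic receptor Lrp2 and 0.66 for Lrpprc, which stabilises mitochondrial messengers. None of the 4 was called between the classes by edgeR.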

How the results depend on the processing

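The count of nuclear genes higher in dominated barcodes, 481, was 206 with DESeq2, 204 with no filter on low counts, 184 with members over 75% mitochondrial, 127 with members of at least 200 genes, 181 with shared barcodes left out, 230 with thinned reference sums and 84 with members of at least 90% ribosomal RNA. The lower count, 412, was 188 with DESeq2, 664 with no filter, 254 with no library block, 149 with members of at least 200 genes, 126 with shared barcodes left out and 233 with thinned reference sums. Leaving out 1 library gave 287 to 389 higher and 264 to 320 lower. The thinned sums and the set without shared barcodes tested fewer genes, 1980 and 1610, and the cause of the other shifts was not tested. Of the calls in these settings, 1, with members of at least 200 genes, had the opposite direction to that with all members.

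Of 53 called genes that are named, DESeq2 kept 42 calls, members of at least 200 genes 36, and 27 of 44 given were kept with shared barcodes left out. The sign of the edgeR value turned in members of at least 90% ribosomal RNA (Gm13341 −0.45, Gm11410 −0.41, Gm28437 −0.56, Gm13340 −0.53, Gpx3 −0.46, Acsm2 −0.054, Hsp90aa1 −0.41), in members of at least 200 genes (Wnk1 −0.73, Kcnq1ot1 −2.09) and with reference barcodes at most 25% mitochondrial (S100g 0.075). In the fit at 90% or more, the median over 3888 genes was −0.34, beside 0.03 with all members. Nuclear CPM of Acsm2 was above the reference there in every library, and that of Gpx3 in every library but Akita replicate 1. The splits by ribosomal RNA and the removal of genes matching mitochondrial transcripts were chosen after seeing the data.

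The genotype difference in the share of dominated barcodes, 2.02 percentage points, was −0.872 with shared barcodes left out and −6.81 to 10.9 with 1 library left out. Genes called between genotypes numbered 0 in every setting with all libraries, and 1 to 3 with 1 left out, where the lone library is assumed to vary like the others. A fit with the replicate number as a block also called 0, with 30 at an unadjusted p under 0.05; nothing in the labels says that the numbers pair the mice. The ribosomal RNA difference, 9.05 points, was 19.0 with members over 75% mitochondrial and −14.8 with members of at least 200 genes, and 6.33 to 12.6 with 1 library left out. Depth limits the rest: the median dominated barcode held 47 to 60 nuclear UMIs, so most nuclear genes could be tested only in sums.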

Other observations

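Some genes with larger log2 differences than those named lay under 200 nuclear CPM and are given as values, chosen after they were seen. 5830416I19Rik had the highest log2 difference of all genes tested, 4.17 (SE 0.33, edgeR adjusted p = 1.5e-12), with means of 180.5 CPM in dominated and 9.45 in reference barcodes. Gm12155 followed at 3.73 (SE 0.34), with 137.4 and 9.81 CPM, and neither matched a mitochondrial transcript at 90% identity over 50 bases.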
